A study of Mus musculus with 23 samples.

Results

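The mRNAs of 7 regulators of pluripotency, Pou5f1, Sox2, Nanog, Klf4, Lin28a, Sall4 and Myc, were followed through 10 libraries of crosslinking and immunoprecipitation with sequencing (CLIP-seq) from mouse embryonic stem cells. In CLIP-seq, ultraviolet light fixes proteins to the RNA they touch, an antibody recovers the protein, and the attached RNA fragments are sequenced. A gene's members were the distinct alignments (chromosome, start, end and strand, each counted once per library) whose midpoint lay in a window on the gene's strand, given here on mouse build mm9. The windows were chr17:35642900-35647800 on the plus strand for Pou5f1, chr3:34548900-34551500 on the plus strand for Sox2, and chr6:122657500-122664700 on the plus strand for Nanog. For Klf4 the window was chr4:55540000-55545400, for Lin28a chr4:133559000-133575000 and for Sall4 chr2:168573500-168593000, all on the minus strand, and for Myc chr15:61816800-61822000 on the plus strand. They held 704 of 366484 distinct alignments, or 0.192%. Of these, 469 (66.6%) lay in Lin28a, 87 in Sall4, 82 in Sox2, 20 in Pou5f1, 19 in Nanog, 18 in Klf4 and 9 in Myc. On the opposite strand the windows held 1 alignment. No annotation of mm9 was used, so exons, coding sequence and untranslated regions were not assigned inside the windows.

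All libraries came from the v6.5 line, grown with leukaemia inhibitory factor on feeder fibroblasts, depleted of feeders by pre-plating and kept off feeders for 24 hours before irradiation at 254 nm with 400 mJ/cm2. A rabbit antibody against Upf1 was used on untreated cells (libraries A1, A2 and I) and on cells given 100 µg/ml cycloheximide for 2 hours (libraries A1 and A2). Control IgG was used on untreated cells (A1, A2 and I) and on cycloheximide-treated cells (A1 and A2). Every group thus had the same line, irradiation and pre-plating, and nothing in the labels ties the libraries of a group to separate cultures, so p-values measure the spread between these libraries, which may be technical.

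Upf1 is an RNA helicase at the core of nonsense-mediated decay, the pathway that removes mRNAs on which translation ends too early. It contacts RNA widely, and translating ribosomes are known to clear it from the sequences they pass. Cycloheximide stops ribosomes during elongation and blocks this decay. Pou5f1 (Oct4), Sox2 and Nanog are the core transcription factors of the pluripotent state, Klf4 and Myc are the transcription factors used with them in reprogramming, Sall4 is a zinc finger factor that acts with the core, and Lin28a is an RNA-binding protein that blocks maturation of let-7 microRNAs.

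The libraries held 7215 to 97651 distinct alignments, and the shallowest were IgG cycloheximide A1, IgG untreated A2 and IgG untreated A1. They were not separate pools of molecules. A molecule is here an alignment with the 2 letters in its deposited name, taken to be the 2 random bases of the 5′ adapter, which no header states. In IgG cycloheximide A2, 31 of 31 molecules in the 7 windows also stood in another library, as did 21 of 24 in IgG cycloheximide A1 and 12 of 14 in IgG untreated A2. In the Upf1 libraries the share was 62.2% in cycloheximide A2, 60% in untreated A2 and 44.2% in cycloheximide A1. It was between 0% and 6.16% in Upf1 untreated A1, Upf1 untreated I, IgG untreated A1 and IgG untreated I. Most of the shared molecules crossed the antibodies: 28 of the 31 in IgG cycloheximide A2 and 18 of the 24 in IgG cycloheximide A1 were also found in a Upf1 library. Whether this came from the preparation or from the sequencing was not tested, and results are given below with and without the shared molecules. Read length differed too: it was 34 nt in 3 untreated libraries (A1 and I with Upf1, I with IgG) and 38 nt in all treated ones and the other untreated ones.

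**Figure D1:**
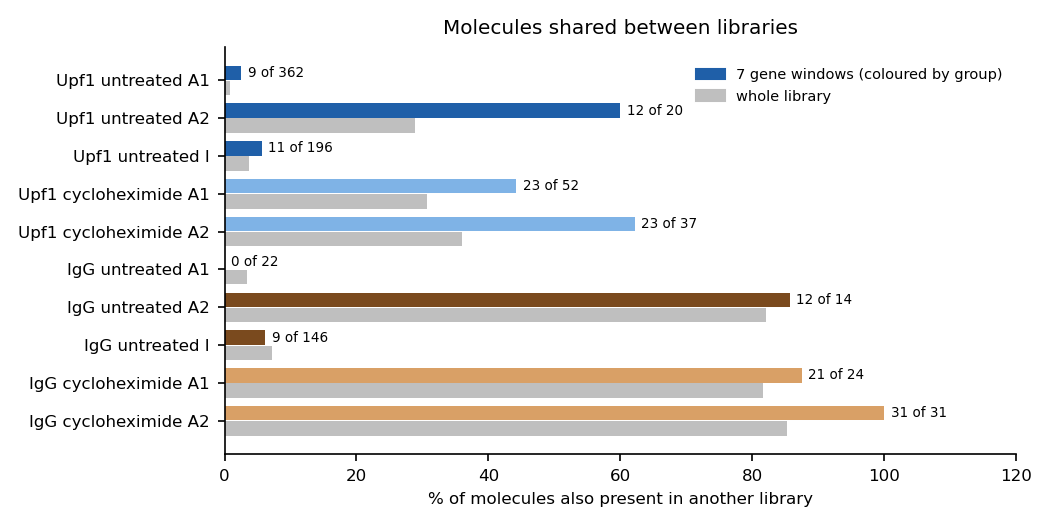
Share of molecules (alignment with the 2 letters in its name) that were also present in another library, for the 7 gene windows (coloured bars, with the number shared of the number found) and for the whole library (grey bars). In IgG cycloheximide A2 all 31 window molecules were shared, against 9 of 362 in Upf1 untreated A1.

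Lin28a gave by far the most alignments. Its rate per library total was high in most untreated libraries of either antibody and lower in the Upf1 libraries after cycloheximide. The fit did not call this difference in Upf1 (limma-voom adjusted p = 0.400). In rates per 100000 distinct alignments, the Upf1 libraries of untreated cells held 185 (A1), 63.6 (A2) and 132 (I), from 181, 13 and 118 alignments. After cycloheximide they held 47.2 (A1) and 23.4 (A2), from 15 and 8 alignments. On this scale the highest treated library lay below the lowest untreated one. With the TMM scaling of the fit the groups overlapped, since the scaled log2 value was 9.34 in Upf1 cycloheximide A1 and 9.23 in Upf1 untreated A2. Among all 5835 tested features, which are the gene windows and tiles of 5000 nt on each strand with at least 10 alignments and 3 libraries, 18.7% showed that order, so it is a common one. Pooled over the Upf1 libraries, the treated rate was 0.232 times the untreated one, with an exact 95% interval for counting error of 0.145 to 0.354. Pooled over the IgG libraries it was 0.483 times the untreated one (0.291 to 0.768), so the pooled rate was lower with either antibody. The difference of this change between antibodies was not called. Such intervals take alignments as independent, which shared molecules are not, so they are too narrow, here and for the genes below.

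The control antibody recovered Lin28a as well. IgG held 38.8 (A1), 121 (A2) and 206 (I) per 100000 in untreated cells, and 97.0 (A1) and 76.1 (A2) after cycloheximide. These IgG groups overlapped, because IgG untreated A1 was below both treated libraries. That library had 4 distinct alignments in the window but 293 deposited lines, since its file repeats the same positions. Upf1 untreated libraries averaged 127 ± 61.1 (SD, n = 3) and IgG untreated libraries 122 ± 83.4 (SD, n = 3), so the level in untreated cells did not separate the antibodies. After cycloheximide both Upf1 libraries were below both IgG libraries in this rate, an order that 17.5% of all features had. With TMM scaling they overlapped, at log2 values of 9.34 (A1) and 8.49 (A2) for Upf1 and 8.93 (A1) and 9.73 (A2) for IgG.

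**Figure D2:**
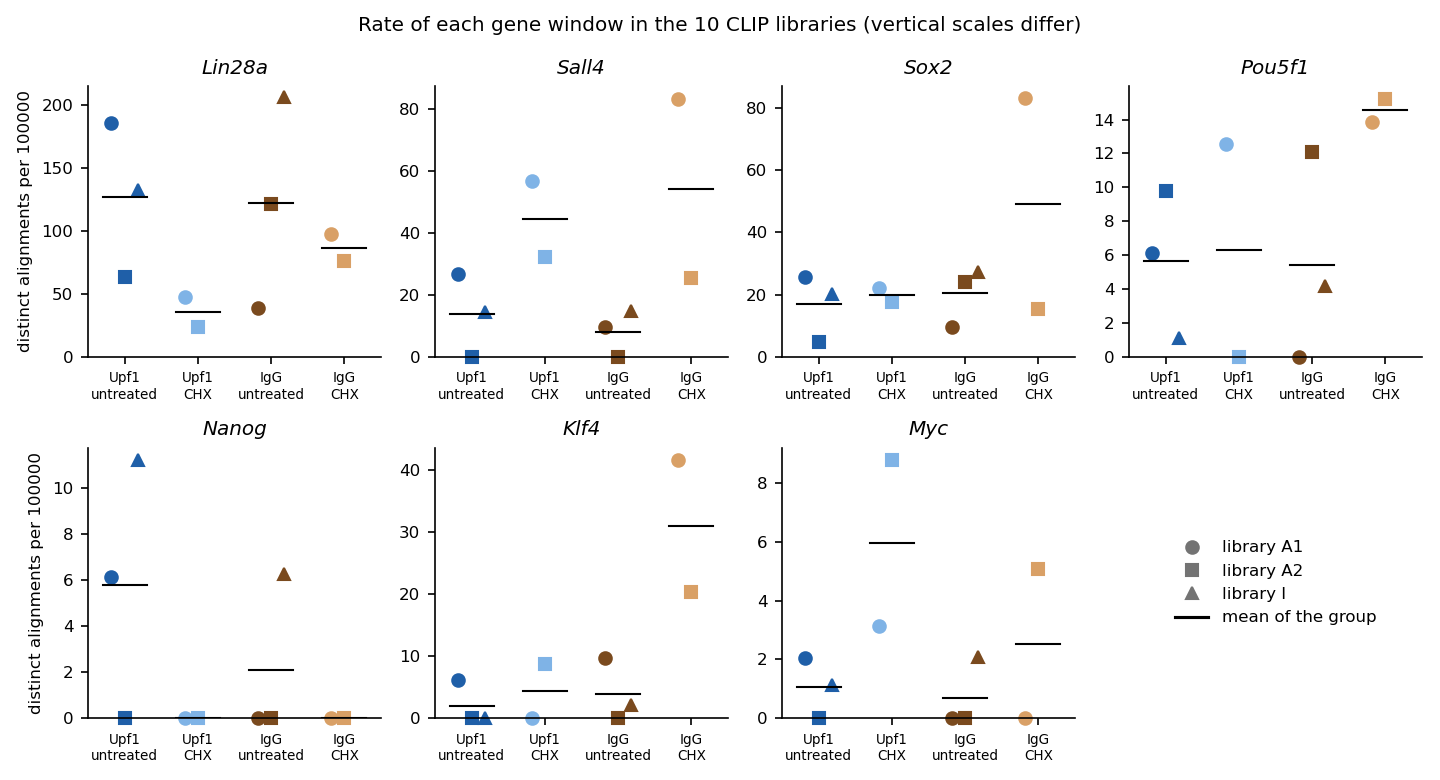
Rate of each gene window, in distinct alignments per 100000 of the library, by group (CHX, cycloheximide), with 1 point for each library, its shape giving the library label, and a line at the group mean; the vertical scales differ between genes. In Lin28a the 2 treated Upf1 libraries (47.2 and 23.4) lie below the 3 untreated ones (63.6 to 185), and in Sall4 they lie above (56.6 and 32.1 against 0 to 26.6).

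Read length and sharing bear on this value. With reads of 38 nt only, the comparison in Upf1 is of A2 at 63.6 with 47.2 and 23.4, and the fitted log2 difference was -0.49 ± 1.01 (SE) in place of -1.70 ± 1.15. Without molecules present in more than 1 library, the treated Upf1 libraries kept 8 and 2 alignments, or 34.7 and 8.59 per 100000, and the untreated ones 184 (A1), 39.0 (A2) and 128 (I). The order of the groups in these rates was the same. The treated IgG libraries then kept 1 (A1) and 0 (A2) alignments. Alignments shorter than 30 nt made up 52.2% of the 23 treated and 17.6% of the 312 untreated Upf1 alignments in the window. Their part in the difference was not tested.

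Lin28a alignments were packed into the 3′ end of the window. Of 469, 445 (94.9%) had their midpoint in the last of 5 equal parts, 12801 to 16000 nt from the window's 5′ limit. The share in untreated cells was 96.1% (A1), 100% (A2) and 96.6% (I) for Upf1 and 75% (A1), 100% (A2) and 99.0% (I) for IgG. After cycloheximide it was 66.7% (A1) and 62.5% (A2) for Upf1, and 85.7% (A1) and 86.7% (A2) for IgG. In Upf1 the treated libraries were below the untreated ones, with means of 64.6% ± 2.95 (SD, n = 2) and 97.6% ± 2.11 (SD, n = 3). In IgG they overlapped, because IgG untreated A1 had 3 of 4 alignments there. Over both antibodies the treated share was lower by 19.1 percentage points, with p = 0.05 in an exact two-sided permutation test of the labels within each antibody, whose smallest possible p is 0.01. Within Upf1 the treated minus the untreated share was -33.0 points, with an exact permutation p of 0.1, the smallest that 3 against 2 libraries allow. Within IgG it was -5.14 points, with an exact permutation p of 0.7, so most of the difference came from Upf1. Without IgG untreated A1 the difference over both antibodies became 23.1 points, with an exact permutation p of 0.0167, the smallest possible there. This was the largest difference among runs that left out 1 library, where treated minus untreated ran from -23.1 to -16.9 points. Without shared molecules the difference was 13.2 points, with an exact permutation p of 0.4, and the treated Upf1 shares rested on 6 of 8 and 1 of 2 alignments. This share was chosen after the positions had been seen, so its p-values describe these libraries and are not support for a difference.

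**Figure D3:**
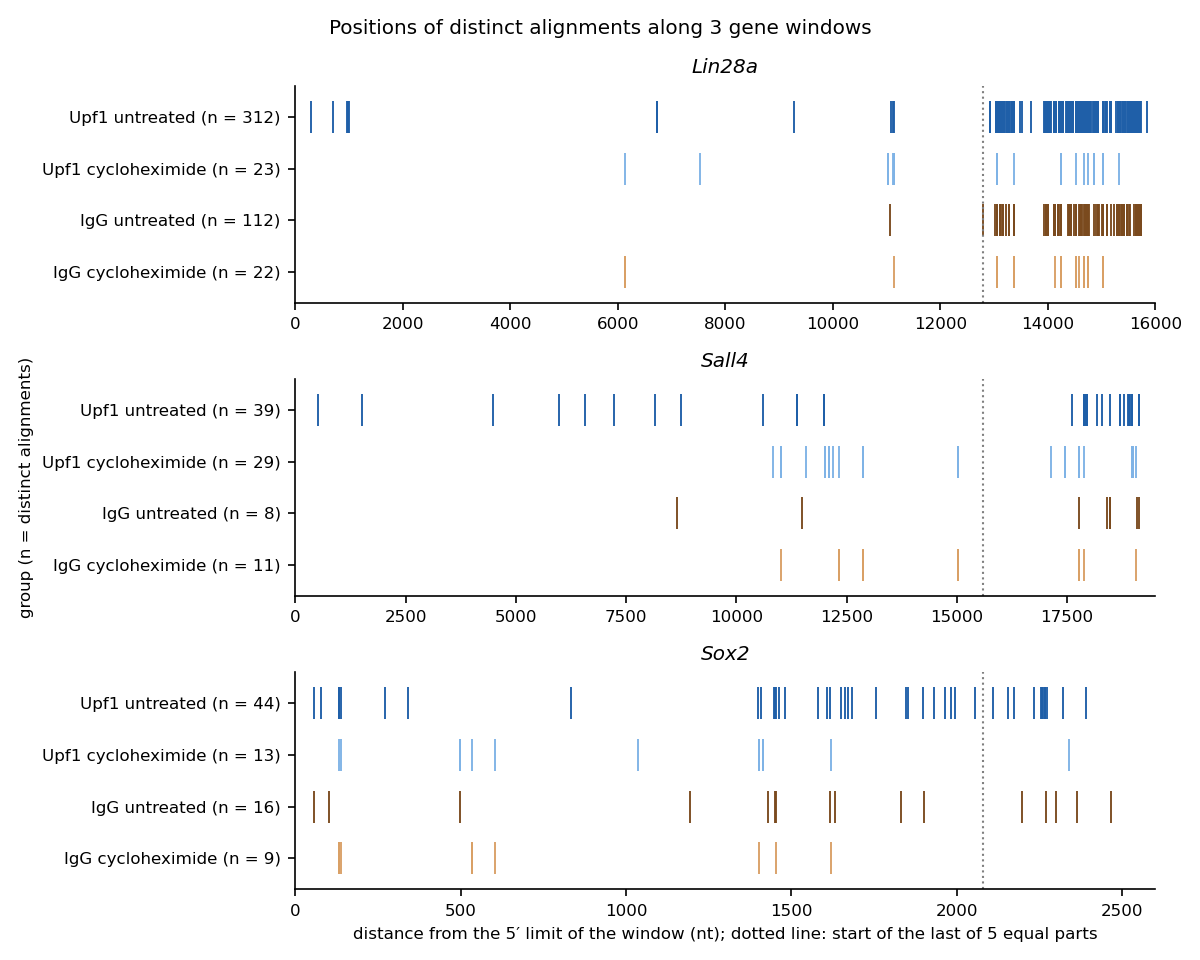
Distance of each distinct alignment's midpoint from the 5′ limit of the Lin28a, Sall4 and Sox2 windows, in nt, with 1 tick for each alignment and 1 row for each group; the dotted line marks the start of the last of 5 equal parts. In Lin28a, 445 of 469 alignments lie to the right of the line, and in Sall4 all 40 treated alignments lie in the last 3 of the 5 parts.

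Split by position, and with shared molecules counted, treated Upf1 libraries were below the untreated Upf1 ones in the 3′ part of Lin28a. In the rest of the window the treated libraries of either antibody were above the untreated ones of that antibody. For IgG the rest held 13.9 (A1) and 10.1 (A2) per 100000 in treated libraries, from 3 alignments. Untreated IgG libraries held 9.71 (A1), 0 (A2) and 2.10 (I) there, from 2 alignments, where the 0 in A2 allows up to 36.3. Without shared molecules the treated IgG libraries held 0 (A1) and 0 (A2) in the rest, against 9.81 (A1), 0 (A2) and 2.27 (I) untreated. The order in IgG was then gone. The last part held 178 (A1), 63.6 (A2) and 128 (I) per 100000 in untreated Upf1 libraries and 31.5 (A1) and 14.6 (A2) in treated ones. The rest of the window held 7.17 (A1), 0 (A2) and 4.48 (I) in untreated Upf1 libraries, where a count of 0 in A2 allows up to 14.7, and 15.7 (A1) and 8.77 (A2) in treated ones. These values for the rest of the window come from 11 untreated and 8 treated alignments. Without shared molecules it kept 2 (A1) and 1 (A2) treated alignments, or 8.67 and 4.30 per 100000, against 7.19 (A1), 0 (A2) and 4.58 (I) in untreated libraries, so the groups overlapped. The last part still did not overlap, at 26.0 (A1) and 4.30 (A2) against 39.0 (A2) to 177 (A1). Of the 8, 6 lay between 9601 and 12800 nt from the 5′ limit. Single positions recurred there: chr4:133563850-133563887 was found in 3 treated libraries, Upf1 cycloheximide A1 and A2 and IgG cycloheximide A2.

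**Figure D4:**
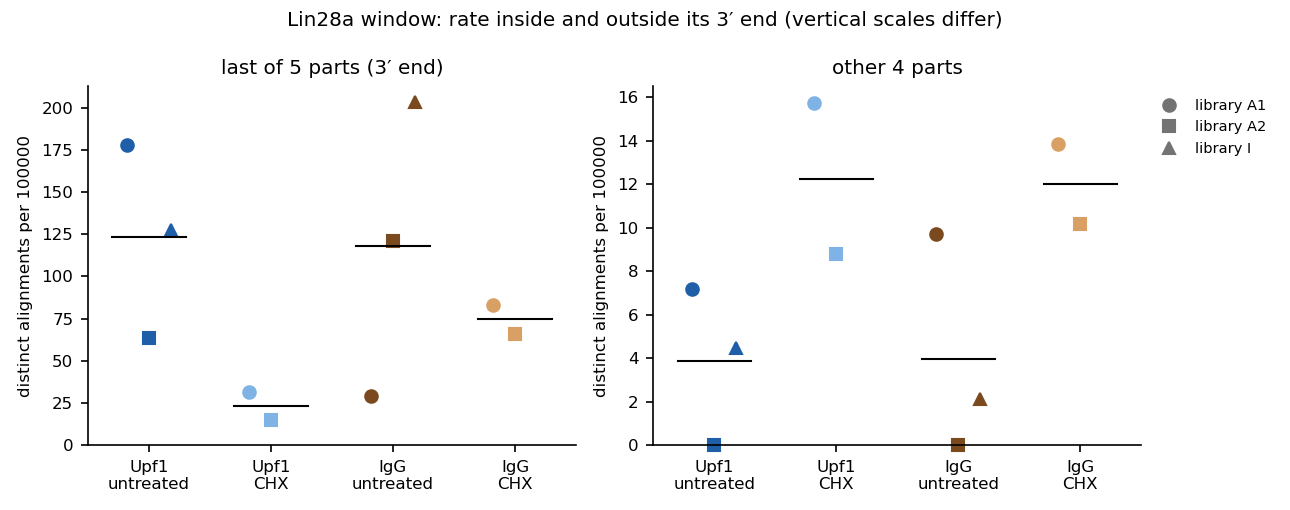
Rate of Lin28a alignments per 100000 distinct alignments of each library, in the last of 5 equal parts of the window (left) and in the other 4 parts (right), by group (CHX, cycloheximide), with a line at the group mean; the vertical scales differ. The treated Upf1 libraries lie below the untreated Upf1 libraries on the left (31.5 and 14.6 against 63.6 to 178). They lie above them on the right (15.7 and 8.77 against 0 to 7.17). The treated IgG libraries also lie above the untreated IgG ones on the right (13.9 and 10.1 against 0 to 9.71). Shared molecules are counted, and without them neither antibody kept the order on the right.

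When unspliced alignments were merged into regions wherever they lay within 50 nt, Lin28a had 15 regions, of which 3 were tested and held 449 alignments. The largest, chr4:133559254-133561081, held 339 alignments: 220 in untreated Upf1, 10 in treated Upf1, 94 in untreated IgG and 15 in treated IgG. Its cycloheximide difference in Upf1 was a log2 of -2.19 ± 1.17 (SE; limma-voom adjusted p = 0.312). The second, chr4:133561609-133561995, held 99 alignments, 74 of them in untreated Upf1 and 5 in treated Upf1, all 5 of these in library A1. Its log2 difference was -1.82 ± 1.13 (SE; adjusted p = 0.385), and it was 0.019 without Upf1 cycloheximide A2 and 0.40 in the libraries with 38 nt reads. The third, chr4:133563850-133563977, held 11 alignments, 3 in untreated and 6 in treated Upf1, and its log2 difference was 2.69 ± 1.09 (SE; adjusted p = 0.148). None of the 3 passed the threshold of 0.05. Over both antibodies none of the 8 tested regions in the gene windows was called either, against 7.42% of 2357 regions. There the largest Lin28a region had a log2 of -1.48 ± 0.85 (SE; limma-voom adjusted p = 0.358). It was called without shared molecules, at -2.89 ± 0.69 (SE; adjusted p = 0.00454), where 1.52% of 1774 regions were called. It was also called without IgG untreated A1, at -1.92 ± 0.60 (SE; adjusted p = 0.0155), where 13.9% of 2301 regions were called and 145 of them were lower, against 24 with all libraries.

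By rank of alignments, Lin28a was 9 of the 5835 tested features, Sall4 154 and Sox2 177, though the gene windows differ in width from the tiles. The tiles whose scaled log2 values followed Lin28a most closely over the 10 libraries were chr17:46910001-46915000 (Pearson r 0.967), chr11:50105001-50110000 (0.958) and chr5:135095001-135100000 (0.943), all on the minus strand. Among the gene windows, Pearson r with Lin28a was 0.85 for Nanog, 0.52 for Sox2, 0.16 for Sall4, 0.13 for Pou5f1 and -0.37 for Klf4. These are descriptions over libraries that share depth, read length and, in part, molecules.

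Sall4 showed the opposite order to Lin28a. The Upf1 libraries held 26.6 (A1), 0 (A2) and 14.6 (I) per 100000 in untreated cells, from 26, 0 and 13 alignments, and 56.6 (A1) and 32.1 (A2) after cycloheximide, from 18 and 11. Both treated libraries were above all untreated ones, an order that 15.4% of all features had. IgG held 9.71 (A1), 0 (A2) and 14.7 (I) in untreated cells and 83.2 (A1) and 25.4 (A2) after treatment, again without overlap, as in 15.8% of features. Pooled, the treated rate was 2.34 times the untreated one in Upf1 (exact 95% interval 1.39 to 3.87) and 3.38 times in IgG (1.24 to 9.69). The 0 in Upf1 untreated A2 allows up to 14.7 per 100000, and without that library the fitted log2 difference in Upf1 was 1.08 ± 1.33 (SE) in place of 2.44 ± 1.17.

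Without shared molecules, Sall4 kept 39 of 39 untreated and 18 of 29 treated Upf1 alignments, and the treated rates were 47.7 (A1) and 30.1 (A2), still above 26.7 (A1), 0 (A2) and 14.9 (I). Of the 11 treated IgG alignments 2 remained. Alignments under 30 nt made up 58.6% of treated and 20.5% of untreated Upf1 alignments in Sall4, a shift that library-wide shares of 50.4% and 52.3% in the treated Upf1 libraries, against 12.2% to 31.4% in the untreated ones, also had. Its part in the difference was not tested.

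The only spliced alignment in any window was in Sall4. It spanned chr2:168582272-168590598, 8327 nt, in Upf1 untreated A1. An alignment that covered more than 60 nt was taken as spliced, and the files do not give the exact junction. All 40 alignments of treated cells, 29 with Upf1 and 11 with IgG, lay 3′ of the end of this span. In untreated cells 30 of 38 Upf1 alignments (78.9%, Wilson 95% interval 63.7 to 88.9) and 7 of 8 IgG alignments lay there. The untreated libraries differed among themselves: the share was 88% in Upf1 untreated A1 and 61.5% in Upf1 untreated I. All 7 IgG alignments were from library I, and the 1 alignment of IgG untreated A1 lay upstream. These intervals cover counting error only, and a limit drawn from a single span in a single library is not an exon boundary.

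The Sall4 window was also counted by part, without a test. The last of 5 parts held 48.3% of the 29 treated and 66.7% of the 39 untreated Upf1 alignments, and the part before it 34.5% and 5.13%. For IgG the same parts held 36.4% and 54.5% of the 11 treated alignments, and 75% and 0% of the 8 untreated ones. Sall4 had 30 merged regions, of which 2 were tested. They were chr2:168573843-168574138, with 8 untreated and 5 treated Upf1 alignments (log2 1.68 ± 1.13 SE, limma-voom adjusted p = 0.421), and chr2:168575029-168575145, with 8 and 1 (log2 0.68 ± 0.83 SE, adjusted p = 0.651). In the latter the fitted direction went against the pooled rates, which were 3.90 per 100000 unspliced alignments in untreated and 1.59 in treated Upf1 libraries, and all 8 untreated alignments were in library A1. So 26 of the 87 Sall4 alignments were in tested regions, and the remaining ones were scattered over regions of at most 8 alignments.

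Sox2 was spread over its whole window and did not separate the groups. Upf1 held 25.6 (A1), 4.89 (A2) and 20.2 (I) per 100000 in untreated cells and 22.0 (A1) and 17.5 (A2) after cycloheximide. IgG held 9.71 (A1), 24.2 (A2) and 27.3 (I), and 83.2 (A1) and 15.2 (A2) after treatment. The high value in IgG cycloheximide A1 came from 6 alignments, all 6 of whose molecules were also in another library. Pooled, the treated rate in Upf1 was 0.928 times the untreated one (exact 95% interval 0.458 to 1.75).

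Along Sox2, treated alignments lay mostly in the first 3 of the 5 parts. In untreated cells the last 2 of the 5 parts of the window held 16 and 12 of 44 Upf1 alignments. After cycloheximide each held 1 of 13. For IgG they held 4 and 5 of 16 untreated alignments and 1 and 0 of 9 treated ones. This difference in position was not tested, and 8 of the 14 treated Upf1 molecules were shared with IgG libraries. The 3 tested regions, chr3:34548940-34549058, chr3:34550283-34550398 and chr3:34550465-34551381, held 69 of the 82 alignments. The third held 28 untreated and 2 treated Upf1 alignments, with a log2 difference of -0.86 ± 1.07 (SE; limma-voom adjusted p = 0.656). On the reference of another build, GRCm38, Sox2 lies inside the noncoding gene Sox2ot, and Sall4 overlaps Gm14261.

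Pou5f1 and Nanog, the other core factors, were sparsely covered. Pou5f1 held 6.14 (A1), 9.78 (A2) and 1.12 (I) per 100000 in untreated Upf1 libraries, 12.6 (A1) and 0 (A2) in treated ones, and 0 to 15.2 in the IgG libraries, so all comparisons within Upf1 overlapped. Its 20 alignments fell mostly into the first part of the window (5) and the last 2 (5 and 9). Nanog was found in 3 libraries: 6 alignments in Upf1 untreated A1 (6.14 per 100000), 10 in Upf1 untreated I (11.2) and 3 in IgG untreated I (6.29).

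These are the libraries with 34 nt reads and include the deepest of either antibody. In treated cells Nanog had no alignment in 4 libraries. A limit of 3 counts over the treated Upf1 group corresponds to 4.54 per 100000, and the untreated Upf1 rate of 7.72 was 1.70-fold this limit. That ratio leaves out the counting error of the untreated rate, so it is not a lower bound. The exact interval for counting error of the treated over the untreated rate ran from 0 to 0.814. Without Upf1 untreated I the untreated rate was 5.08 and the ratio to the limit 1.12-fold, and Upf1 untreated A2 was itself at 0, so the groups overlapped. Of the 19 Nanog alignments 14 (73.7%) lay in the last of 5 parts, and none was shared between libraries. No position of Nanog was found in more than 1 library, whereas 52 of 400 in Lin28a were.

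Klf4 and Myc were covered by few alignments in every library. Klf4 had 6 alignments in Upf1 untreated A1, none in the other untreated Upf1 libraries, and 0 (A1) and 3 (A2) in treated Upf1. IgG had 1, 0 and 1 in untreated cells and 3 (A1) and 4 (A2) after treatment, or 41.6 and 20.3 per 100000 against 9.71, 0 and 2.10. Both treated IgG libraries were thus above all untreated ones, an order that 15.8% of all features had. The pooled IgG ratio was 8.61, with an exact 95% interval of 1.64 to 84.9. All 7 treated IgG molecules were also present in another library, and the 3 of IgG cycloheximide A1 were all in IgG cycloheximide A2. The interval counts them as independent, so it is too narrow. Myc had 2, 0 and 1 alignments in untreated Upf1, 1 and 3 in treated Upf1, and 2 in IgG. The pooled treated ratio in Upf1 was 4.19, with an interval of 0.708 to 28.6, and Myc was below the minimum for the test.

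To compare genes, rates were divided by window length, which includes introns. In untreated Upf1 libraries Lin28a held 7.94 ± 3.82 per 100000 per kb, Sox2 6.49 ± 4.13, Pou5f1 1.16 ± 0.89, Nanog 0.80 ± 0.78, Sall4 0.70 ± 0.68, Klf4 0.38 ± 0.66 and Myc 0.20 ± 0.20 (all SD, n = 3). Each neighbouring pair in this order differed by less than its spread, apart from Sox2 and Pou5f1, whose means differed by more than the larger SD. In untreated IgG libraries Sox2 held 7.84 ± 3.60 and Lin28a 7.61 ± 5.21 per kb (SD, n = 3). The order of the highest genes was therefore not shown to differ between antibodies. No mRNA-seq sample was used here, so whether these rates follow mRNA level was not tested. Fewer cells of a type and less RNA per cell cannot be told apart in such bulk samples.

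The fit across all features asked which gene windows differed between antibodies. No feature passed in Upf1 against IgG (0 of 5835, 0%; limma-voom), while 130 of them had an unadjusted p under 0.05, 84 of them higher in Upf1. Of the 6 tested genes, 1 was among these: Klf4, with a log2 of -1.39 ± 0.65 (SE), unadjusted p = 0.0331 and adjusted p = 0.999. The other 5 lay between -0.34 (Pou5f1) and 0.60 (Sall4), with Lin28a at 0.39 ± 0.77 (SE). A second tool, limma with a trended prior, called 0 features too, and had Klf4 as the only gene at an unadjusted p under 0.05. None of the 8 tested regions in the windows was called, as 0% of 2357 regions were, and none had an unadjusted p under 0.05 with either tool. Scaling by library totals moved the median of all features from 0.05 to -0.78.

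The same fit asked which windows differed after cycloheximide. In Upf1, 103 of 5835 features (1.77%) passed, 1.3% higher and 0.463% lower, and 0 of the 6 tested genes did. The split was 76 higher and 27 lower with TMM scaling, and 25 and 49 with library totals. Sall4 had a log2 of 2.44 ± 1.17 (SE), unadjusted p = 0.0379 and adjusted p = 0.226, and was the only gene at an unadjusted p under 0.05; limma with a trended prior called 0 and added Nanog at that level. Lin28a had -1.70 ± 1.15 (SE; adjusted p = 0.400) and Nanog -1.66 ± 0.92 (SE; adjusted p = 0.298). Klf4 stood at 1.17 ± 0.94, Sox2 at 0.62 ± 1.17 and Pou5f1 at -0.11 ± 1.01 (SE). None of the 8 regions was called either, against 4.07% of 2357 regions. In IgG 0 of 5835 features (0%) passed with limma-voom, where 484 had an unadjusted p under 0.05, and 0 passed with a trended prior. There Sall4 had 2.13 ± 1.09 and Klf4 2.18 ± 1.02 (SE), of which Klf4 had an unadjusted p under 0.05.

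**Figure D5:**
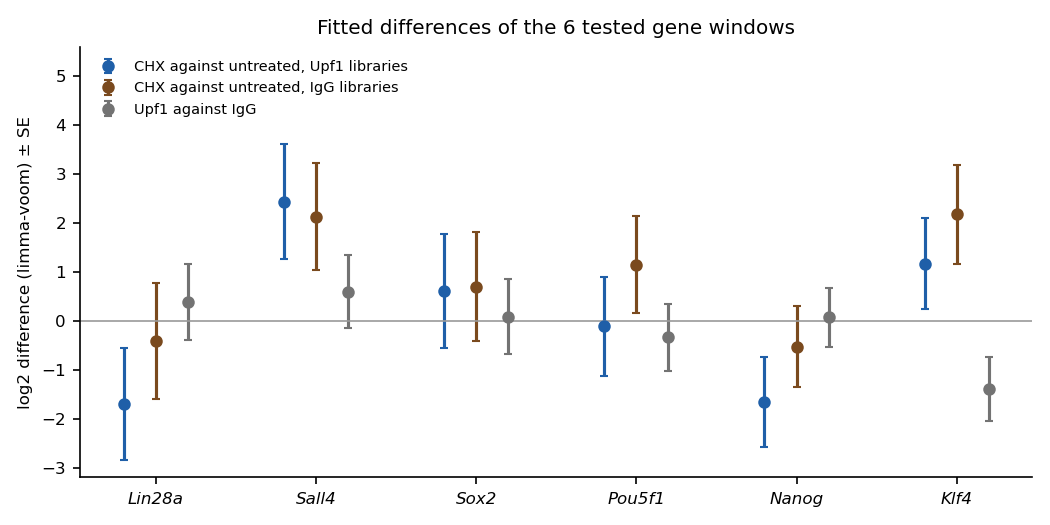
Fitted log2 difference (limma-voom) with its SE for the 6 tested gene windows, for cycloheximide (CHX) against untreated in Upf1 and in IgG libraries and for Upf1 against IgG. No value passed an adjusted p of 0.05; in Sall4 the cycloheximide values are 2.44 (Upf1) and 2.13 (IgG), and in Lin28a they are -1.70 and -0.41.

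Over both antibodies together, 416 of 5835 features (7.13%) passed, 6.22% higher and 0.908% lower, and Sall4 was just outside the threshold. Its log2 was 2.25 ± 0.78 (SE; limma-voom adjusted p = 0.0539). Klf4 followed with 1.66 ± 0.69 (SE; adjusted p = 0.115), and Lin28a had -1.09 ± 0.79 (SE; adjusted p = 0.408). Sall4 was called without Upf1 untreated A1 (adjusted p = 0.0202), Upf1 untreated I (0.0293), IgG untreated A1 (0.0160) or IgG untreated I (0.0193). In these settings 7.14%, 7.61%, 13.7% and 6.62% of all features were called. It was not called without Upf1 untreated A2 (log2 1.67, limma-voom adjusted p = 0.201) or IgG untreated A2 (1.77, 0.149), libraries in which Sall4 had no alignment. Among the 1154 features with at least 30 alignments it was called (adjusted p = 0.00141), as were 11.1% of them. There it was called in Upf1 alone as well (0.0206), as were 8.23%. With the library label as a block it was called too (0.00712), as were 8.28% of features. Without shared molecules its log2 was 1.11 ± 0.71 (SE; adjusted p = 0.561). Over all alternatives its adjusted p ran from 0.00141 to 0.878.

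Lin28a over both antibodies was called in 1 alternative, without IgG untreated A1, with a log2 of -1.55 ± 0.54 (SE; adjusted p = 0.0345), where 13.7% of 5728 features were called, 402 of them lower against 53 with all libraries. It reached -2.49 ± 0.70 (SE; adjusted p = 0.0533) without shared molecules and -0.06 ± 0.63 in the libraries with 38 nt reads. Klf4 was called without Upf1 untreated A1, at 2.09 ± 0.72 (SE; adjusted p = 0.0492), where 7.14% of 3728 features were called. That library held all 6 untreated Upf1 alignments of Klf4, so leaving it out set the untreated Upf1 rate to 0. The difference of the cycloheximide change between antibodies was called for 0 of 5835 features (0%; limma-voom), of which 188 had an unadjusted p under 0.05, and for none of the 6 genes with limma-voom or with a trended prior. It was -1.29 ± 1.65 for Lin28a and 0.30 ± 1.60 for Sall4 (SE).

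Spliced alignments were rarer in the windows than in the libraries. Of 574 alignments in untreated cells 1 was spliced, against 1.09% library-wide, and of 130 in treated cells none was, against 4.69%. A count of 0 of 130 would allow a share of up to 2.31% for counting error, if the alignments were independent. Many treated molecules in the windows were present in more than 1 library, so this limit is too low. Whether the treated share in the windows lay below the library-wide one was therefore not shown. Pou5f1, Nanog, Klf4, Lin28a and Myc are spliced genes and Sox2 is not, and the alignments were concentrated near the 3′ ends of Lin28a and Nanog.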

How the data were processed

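The authors deposited 1 list of alignments for each CLIP-seq library on mouse build mm9, the build in the submitters' processing notes, which also list Bowtie 0.12.6, Cufflinks 1.3.0 and TopHat 1.4.0 with no step assigned. The deposited score column held 255 in each of 833047 lines and was not used as a measurement. The other deposited columns used were positions, strand and a name with 2 letters. Distinct alignments were tallied in the 7 windows and in tiles of 5000 nt on each strand (minimum 10 alignments and 3 libraries). These are tallies of lines and not a deposited count table, so limma-voom (limma 3.58.1, R 4.3.3) was used, with TMM scaling (trims of 30% and 5%), a model of treatment and antibody or of the 4 groups, and Benjamini-Hochberg adjustment over all features. The second tool was limma with a trended prior on log2 values with an offset of 0.5. The script was tested on simulated data. All 7 genes, all tested regions in their windows and the 3 tiles closest to Lin28a are named. The members and lists were chosen with earlier results of these data known. A planned list of other pluripotency genes and cell type markers, feeder fibroblast markers included, was not run, since no mm9 annotation was used. The 10 mRNA-seq and 3 ribosome footprinting samples were not analysed here. Alternatives varied scaling, filter, tool, counting, libraries, tile width and window limits.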

Additional observations from a re-analysis of the deposited data

How the results depend on the processing

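All values here are log2 differences unless stated, none of them called in the main analysis, and the cause of each change was not tested. No tested region in a gene window was called in Upf1 against IgG or for cycloheximide in Upf1 under any alternative run, nor was any gene window in Upf1 against IgG or in the difference between antibodies. For cycloheximide over both antibodies 1 gene was called with at least 30 alignments and 1 with the replicate block, and 0 to 2 when a library was left out; in Upf1 alone 1 was called with at least 30 alignments (Sall4 each time, with Klf4 or Lin28a as the second). Same-label libraries (A1, A2 or I) correlated between -0.09 and 0.45 in their deviations, not all above 0.1, so they were not taken as pairs, although some share molecules (10 of 14 in IgG untreated A2 were in Upf1 untreated A2). With the label as a block, that is the replicate block, calls over both antibodies went from 416 to 483 features and in Upf1 from 103 to 237.

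Upf1 against IgG changed sign most often. With library totals Sox2 was -0.66, Nanog -0.76, Lin28a -0.37 and Sall4 -0.055. With no filter Pou5f1 was 0.017 and Nanog -0.027. Without shared molecules Pou5f1 was 0.37 and Nanog -0.35. In untreated libraries alone Pou5f1 was 0.22 and Sox2 -0.026. With 38 nt reads Sox2 was -0.33 and Lin28a -0.10, with at least 30 alignments Sox2 was -0.23, and with the replicate block Nanog was -0.10. Leaving out 1 library gave -0.77 to 0.29 for Pou5f1, -0.18 to 0.53 for Sox2, -0.061 to 0.31 for Nanog and -0.20 to 0.93 for Lin28a.

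For cycloheximide in Upf1, Pou5f1 was 0.11 without shared molecules and Sox2 -0.010 with no filter, and leaving out 1 library gave -1.73 to 1.43 for Pou5f1, -0.18 to 1.23 for Sox2 and -0.23 to 2.56 for Klf4. Over both antibodies Pou5f1 was -0.39 with every line counted and -0.056 to 1.23 when a library was left out, and Sox2 was -0.47 without shared molecules. Among regions, the Sall4 region of 117 nt was -0.38 and the Sox2 region of 116 nt -0.19 with no filter, the Lin28a region of 387 nt was 0.40 with 38 nt reads, and leaving out 1 library gave -3.30 to 0.019 for that region and -1.87 to 0.44 for the Sox2 region of 917 nt.

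For the difference between antibodies, Sox2 was 0.49 with at least 30 alignments, 0.077 with the replicate block, 1.17 without shared molecules, 1.15 with 38 nt reads and 0.0061 with wider windows. Lin28a was 0.20 without shared molecules, and Sall4 was -0.17 with library totals, -0.58 with no filter and -0.26 with distinct molecules. Leaving out 1 library gave -2.87 to 0.34 for Pou5f1, -0.85 to 0.77 for Sox2, -2.33 to 0.44 for Klf4 and -1.02 to 1.32 for Sall4.

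Averaged over both antibodies, the Lin28a share in the last of 5 parts was lower after cycloheximide under every alternative run. The difference was -23.1 to -16.9 points when a library was left out. Within IgG alone the direction did not hold throughout. Without shared molecules IgG held 100% in treated A1 (1 of 1), against 75% (A1), 100% (A2) and 98.9% (I) untreated. With every line counted, IgG held 87.5% (A1) and 88.9% (A2) treated, against 60.4% (A1), 100% (A2) and 99.6% (I) untreated. Features passing for cycloheximide over both antibodies ranged from 0 (no filter, or every line counted) to 784 (without IgG untreated A1). Other such counts over both antibodies were 237 with library totals, 78 with distinct molecules, 28 without shared molecules, 9 with 38 nt reads, 128 with at least 30 alignments and 145 with wider tiles. In Upf1 alone they ranged from 0 (no filter, every line, distinct molecules, 38 nt reads, or without either treated Upf1 library) to 466 (without IgG untreated A1), with 211 by limma with a trended prior. With distinct molecules a Sall4 region, chr2:168575203-168575236, was called over both antibodies (2.89, limma-voom adjusted p = 0.0130), where 8.4% of 3334 regions were called, 270 of them higher and 10 lower. With regions merged at most 20 nt apart so was chr4:133559254-133559777 in Lin28a (-2.15, adjusted p = 0.0285), where 7.82% of 2020 regions were called, 142 of them higher and 16 lower. Spans seen in at least 2 libraries gave no value for the Sall4 3′ share, since Sall4 has 1 span. Pou5f1, Nanog, Klf4 and Myc had 9 to 20 alignments each, which limits the precision of their values.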
